A study of Mus musculus with 8 samples.

Results

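Langerhans-cell-like (LC-like) cells grown from bone marrow of Rara KO mice were compared with their own WT controls, over all genes and gene family by gene family. The members were 4 of the 8 libraries of the series, chosen by their titles: Rara KO 1 and 2 and WT 1 and 2. The other 4 libraries, retinoic acid-treated cells and their controls, were not compared here. Of the 24421 genes in the count table, the 12111 with at least 0.5 CPM (counts scaled to a common library size) in 2 of these 4 libraries were tested.

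Rara KO mice carried a floxed Rara with an exon removed in cells that express CD11c. The deletion was made by a Cre with a GFP reporter under the CD11c promoter (∆RaraCD11c). WT animals were C57BL/6, undeleted floxed or CD11c-Cre mice, so that a single WT genotype cannot be given, and the labels name the strain of both groups as C57BL6. Ages were not given in the sources used here, and the sexes were combined. Marrow of both groups was cultured with 20 ng/ml GM-CSF, a growth factor for dendritic cells (DCs), and 10 ng/ml human TGF-β1, which directs DC precursors towards LCs, in 10% charcoal-treated serum, which is low in RA, for 3 days by the study's account of these libraries, and CD11c+ cells were then sorted magnetically. The labels leave the serum (regular or charcoal-treated) and the time (3 to 5 days) open. Deletion thus started only in cells that had begun to express CD11c. The study describes its samples as independent, and the labels do not name the animals or dishes. P-values measure the spread between these libraries, and part of that spread may be technical.

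LCs are the DCs of the epidermis. They are held among keratinocytes by adhesion molecules such as E-cadherin and EpCAM, they carry the lectin langerin, and on maturation they leave for lymph nodes with the help of CCR7. RARα is a nuclear receptor that binds DNA as a partner of an RXR and switches its target genes between repression and activation when it binds retinoic acid (RA), a derivative of vitamin A.

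Depth was 26325627 and 34863582 counts in Rara KO, against 43544558 and 76077813 counts in WT. The libraries also differed in the part of the transcript they covered. In Rara KO 48.5 and 46.5% of reads lay in 3' UTRs, against 39.0 and 35.8% in WT, and reads across exon junctions made up 24.1 and 25.3%, against 30.1 and 31.9%. Sex-linked RNA differed as well. Xist, the RNA that silences 1 X chromosome in females, had 1.02 and 0.243 CPM in Rara KO, against 86.7 and 241 CPM in WT. The Y-linked Eif2s3y had 82.2 and 92.3 CPM in Rara KO, against 54.8 and 0 CPM in WT, and Ddx3y had 50.1 and 48.4 CPM in Rara KO, against 28.5 and 0 CPM in WT. Rara KO thus held male RNA almost alone, WT 1 held both kinds and WT 2 female RNA alone, and genotype and sex cannot be told apart in these libraries. Of 375 X-linked genes, 7.73% were called higher and 5.33% lower, against 8.92 and 9.31% of 11731 autosomal genes.

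**Figure D1:**
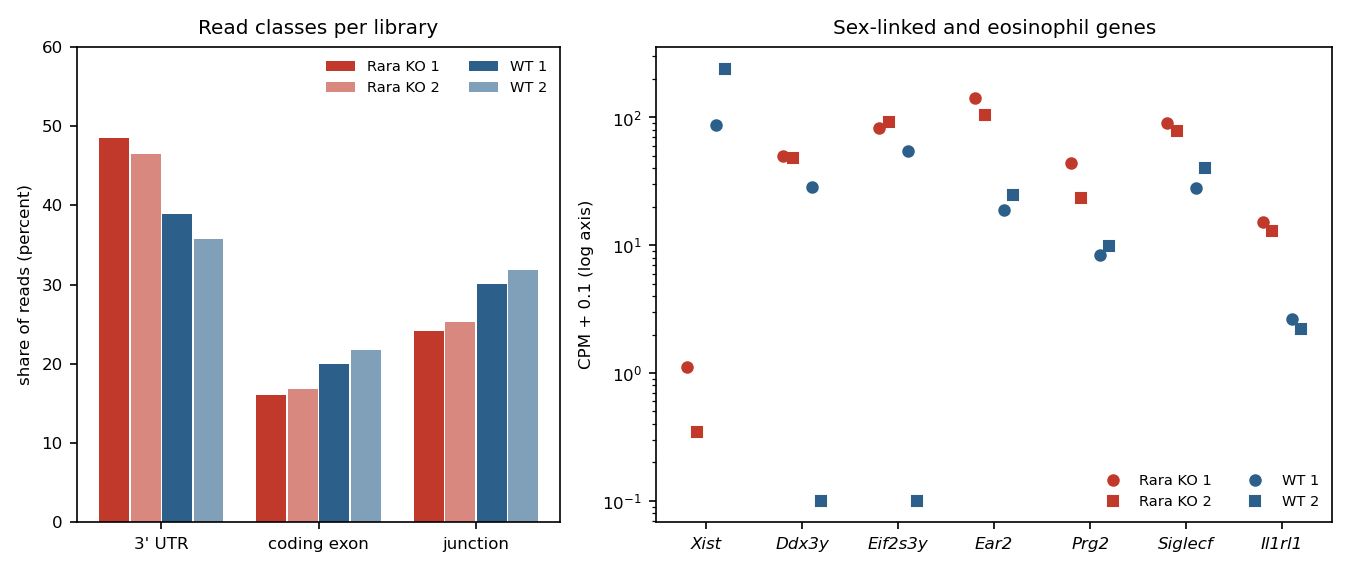
Left, share of reads (percent) in 3' UTRs, coding exons and exon junctions in each library. Right, CPM plus 0.1 on a log axis of Xist, 2 Y-linked genes and 4 genes of eosinophils and related cells, with circles for replicate 1 and squares for replicate 2. Rara KO had 48.5 and 46.5% of reads in 3' UTRs, against 39.0 and 35.8% in WT, and Xist stood at 1.02 and 0.243 CPM, against 86.7 and 241 CPM in WT.

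Across all tested genes, 1075 were higher in Rara KO and 1112 lower at an adjusted p under 0.05, which is 8.88% and 9.18% (edgeR's quasi-likelihood test with Benjamini-Hochberg adjustment). At least 2-fold changes made up 243 of the higher and 436 of the lower genes, and at least 4-fold changes 50 and 118. A first principal component separated the genotypes and held 70.0% of the variance, with Rara KO at -50.6 and -23.9, and WT at 30.8 and 43.7. The SD of the log2 difference between replicates was 0.562 in Rara KO and 0.397 in WT. The counts of called genes depended on which library was left out, with the range over all 4 in the closing section. Without WT 1 they were 446 higher and 564 lower, and without WT 2 142 and 168. Scaling by library totals in place of TMM moved the median log2 fold change of all genes to -0.14 and the share of higher calls to 25.7%, against 49.2%. No gene called in the fit of all 4 libraries changed sign when any 1 library was left out. With 2 libraries a group, a gene whose groups do not overlap can hardly do so, and this is no test of stability.

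Fold changes followed exon length. Genes called higher had a median exon length of 1426 bases and genes called lower 3978 bases, against 2852 bases over all tested genes. In the shortest of 5 groups of equal size by length, 600 were higher and 62 lower, with a median log2 fold change of 0.36. In the longest group 63 were higher and 376 lower, with a median of -0.20. Spearman's rho of the log2 fold change with length was -0.40 across the 12111 genes, which share libraries and are not independent, and a smooth trend on length held 10.3% of the variance. A fit in which each library's own trend on length was removed called 592 genes higher and 534 lower, or 4.89% and 4.41%. These shares are the background for each family's counts with the trend removed, as 8.88% and 9.18% are for its counts as is. Of the calls, 473 higher and 508 lower stood in both fits, and no gene was called in opposite directions. The log2 fold change of 24 called genes had the opposite sign with the trend removed, and none of these was called there. Without WT 1 the fit with the trend removed called 390 genes in both directions together, without WT 2 228, and without Rara KO 2 2277. Below, genes are given with their log2 fold change, the trend at their length and the log2 fold change with the trend removed, and those described more fully also with the SE and the adjusted p. Whether the 3' UTR share and the trend on length arose from RNA quality was not tested.

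**Figure D2:**
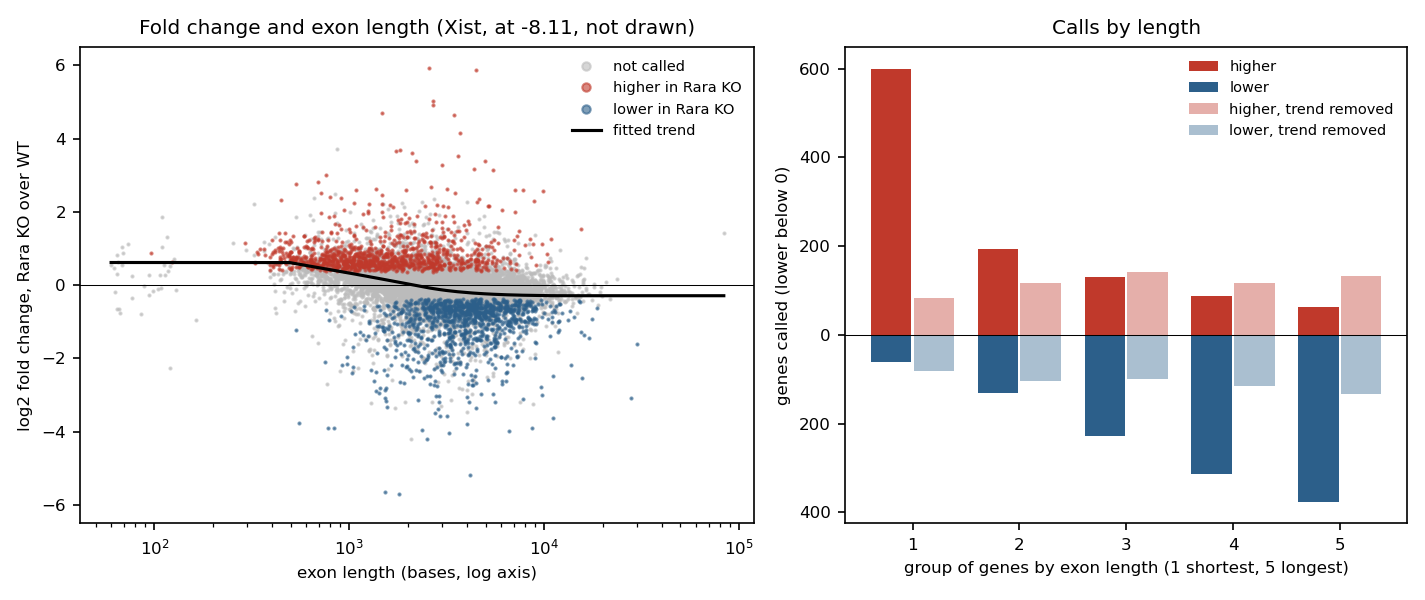
Left, log2 fold change (Rara KO over WT) of each tested gene against its exon length (bases, log axis), with the fitted trend as a black line. Right, number of genes called higher (above 0) and lower (below 0) in 5 groups of genes by length, from shortest to longest, in the fit as is (dark) and with the trend removed (pale). In the shortest group 600 genes were higher and 83 once the trend was removed, and in the longest group 376 were lower and 134 once it was removed.

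Rara itself, at chr11:98937696-98974942 in mm10, had 58.8 and 87.2 CPM in Rara KO, against 98.5 and 121 CPM in WT, a log2 fold change of -0.59 ± 0.21, adjusted p = 0.096 (trend -0.21, -0.38 with it removed). The groups did not overlap, yet the difference did not pass the test. It passed without Rara KO 2, at a log2 fold change of -0.90 (adjusted p = 0.0075), and under some other settings given in the closing section. Reads from exons that were not deleted enter the count too, and the total does not test the deletion.

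Of the receptors Rara works with, Rxra was lower. Its level was 133 and 116 CPM in Rara KO, against 258 and 310.4 CPM in WT (-1.19 ± 0.14, adjusted p = 0.0074, trend -0.25, -0.94 with it removed), and both Rara KO libraries lay below both WT libraries. It was the only one of the 4 RAR and RXR genes tested to be called. The list of genes known to respond to retinoids, which was written with earlier results of these data known, had 5 of the 12 tested members higher and 2 lower (41.7 and 16.7%). Their median log2 fold change was 0.23 beside a median trend of -0.19, and once the trend was removed 5 were higher and 1 lower. Higher and lower members numbered 5 and 1 without WT 1, 4 and 0 without WT 2. The lowest log2 fold change of the list, -2.48, was that of Ccr9, given and counted below with the chemokine receptors. Hic1 changed most among the 5 higher members. Hic1, a zinc finger transcriptional repressor at chr11:75164565-75170255, had 23.1 and 25.1 CPM in Rara KO, against 0.217 and 0.545 CPM in WT (5.88 ± 0.36, adjusted p = 0.0034, trend -0.22, 6.11 with it removed). Both Rara KO values were far above both WT values. Asb2, a substrate subunit of a ubiquitin ligase, had 3.35 and 10 CPM in Rara KO, against 0.261 and 0.19 CPM in WT (4.91 ± 0.65, adjusted p = 0.0099, trend -0.09, 5.01 with it removed), with Rara KO 1 well under Rara KO 2. Cd38, an enzyme that consumes NAD at the cell surface, had 32.9 and 43.1 CPM in Rara KO, against 4.65 and 3.18 CPM in WT (3.29 ± 0.24, adjusted p = 0.0038, trend -0.13, 3.43 with it removed). Fndc5, the precursor of the hormone irisin, and Dhrs3, which turns retinal back into retinol, changed by 5.02 ± 0.76, adjusted p = 0.013 (trend -0.09, 5.11 with it removed) and 1.19 ± 0.12, adjusted p = 0.0056 (trend 0.08, 1.12 with it removed). Dhrs9, a dehydrogenase that acts on retinol, is not of this list but of one of retinoid synthesis, breakdown and binding. That list had 1 of the 13 tested members higher and 1 lower (7.69 and 7.69%, against 8.88 and 9.18% of all genes). Its median log2 fold change was 0.14 at a median trend of 0.08, with 1 higher and 1 lower after the trend was removed. Dhrs9 was lower at 1.89 and 3.76 CPM in Rara KO, against 10.8 and 15.8 CPM in WT (-2.22 ± 0.36, adjusted p = 0.015, trend -0.11, -2.11 with it removed). Cyp26a1 and Rarb, well-known direct targets, were under the limit for testing.

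Cofactors of nuclear receptors were called lower or not at all, with 0 of the 19 tested members higher and 5 lower (0 and 26.3%). The median log2 fold change was -0.27 at a median trend of -0.27, with 0 higher and 3 lower after the trend was removed. With the trend kept, higher and lower members came to 0 and 0 without WT 2, 1 and 7 without Rara KO 2. Crebbp, a histone acetyltransferase, changed by -1.38 ± 0.19, adjusted p = 0.011 (trend -0.27, -1.10 with it removed), and Tbl1x, a part of a corepressor complex, by -1.61 ± 0.26, adjusted p = 0.015 (trend -0.03, -1.57 with it removed). The corepressor Nrip1 and the coactivator Ncoa3 changed by -1.79 (trend -0.22, -1.55 with it removed) and -0.52 (trend -0.27, -0.24 with it removed) on the log2 scale, and neither was called with the trend removed. Of the 11 genes called in this and the preceding paragraph, 9 were also called with the length trend removed (not Nrip1 or Ncoa3), 10 without WT 1, 5 without WT 2, 10 without Rara KO 1 and 11 without Rara KO 2.

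LC markers moved in both directions, more of those called being lower. Langerin (Cd207, chr6:83671207-83677857) had 13 and 8 counts in Rara KO, against 807 and 1483 counts in WT, which is 0.512 and 0.243 CPM in Rara KO, against 17.5 and 18.8 CPM in WT (-5.63 ± 0.32, adjusted p = 0.0034, trend 0.15, -5.77 with it removed). Epcam had 75.9 and 64.5 CPM in Rara KO, against 363 and 342 CPM in WT (-2.33 ± 0.13, adjusted p = 0.0034, trend 0.02, -2.33 with it removed). Mfge8, a bridge between dying cells and phagocytes, had 1559 and 1438 CPM in Rara KO, against 7415 and 9627 CPM in WT (-2.51 ± 0.17, adjusted p = 0.0034, trend 0.00, -2.50 with it removed). Ly75, the endocytic receptor DEC-205, had 9.66 and 10.9 CPM in Rara KO, against 36 and 51.4 CPM in WT (-2.09 ± 0.20, adjusted p = 0.0054, trend -0.24, -1.84 with it removed). In all 4 genes the groups stood far apart and the trend was a small part of the difference. Cdh1, E-cadherin, was lower by less at 954 and 774 CPM in Rara KO, against 1513 and 1467 CPM in WT (-0.79 ± 0.14, adjusted p = 0.017, trend -0.22, -0.56 with it removed), and was not called with the trend removed (adjusted p = 0.068). Other members moved the other way. Cd1d1, which presents lipids to T cells, had 86.6 and 116 CPM in Rara KO, against 34.5 and 44.6 CPM in WT (1.36 ± 0.19, adjusted p = 0.011, trend 0.07, 1.30 with it removed). Cd24a changed by 0.50 ± 0.12, adjusted p = 0.041 (trend 0.07, 0.44 with it removed), no longer called once the trend was removed. The whole list had 2 of the 12 tested members higher and 5 lower (16.7 and 41.7%). Members had a median log2 fold change of -0.62 and a median trend of 0.01, and its removal left 1 higher and 4 lower. The higher and lower counts were 1 and 5 without WT 1, 1 and 4 without WT 2, 1 and 6 without Rara KO 1. Of the 7 genes called, 5 were also called with the length trend removed (not Cdh1 or Cd24a), 5 without WT 1, 5 without WT 2, 6 without Rara KO 1 and 7 without Rara KO 2. Bulk RNA cannot tell fewer cells of a type from less RNA per cell.

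**Figure D3:**
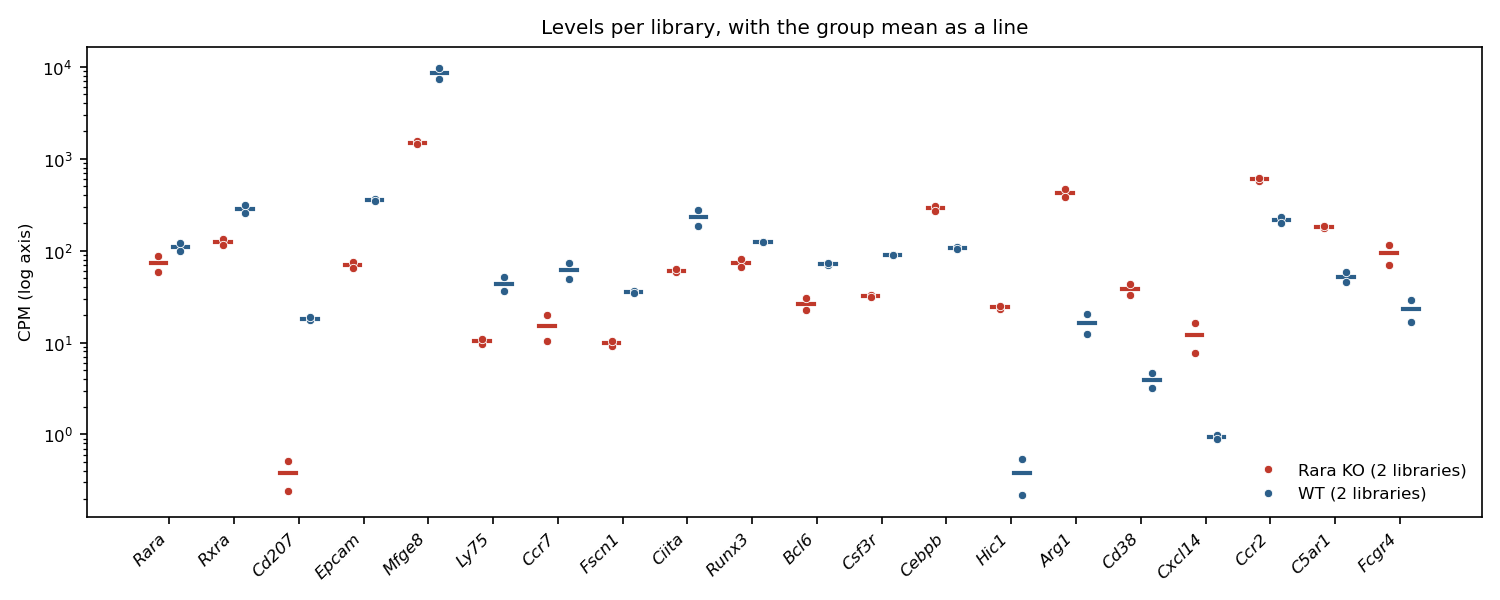
CPM (log axis) of 20 genes described in the text, with a point for each library, Rara KO left of WT, and a line at the mean of each group. For Cd207 Rara KO stood at 0.512 and 0.243 CPM, against 17.5 and 18.8 CPM in WT, and for Arg1 at 464 and 388 CPM, against 20.5 and 12.4 CPM.

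Epithelial-type adhesion molecules were called in 1 direction, with 0 of the 14 tested members higher and 8 lower (0 and 57.1%). At a median trend of -0.18, the median log2 fold change was -0.73, and the fit without the trend had 0 higher and 4 lower. Counts of higher and lower members were 0 and 5 without WT 1, 0 and 3 without WT 2. Cldn1, a tight junction claudin, had 127 and 105 CPM in Rara KO, against 325 and 314 CPM in WT (-1.46 ± 0.13, adjusted p = 0.0047, trend -0.15, -1.29 with it removed). Jup, plakoglobin, had 50.9 and 50.4 CPM in Rara KO, against 114 and 149.6 CPM in WT (-1.38 ± 0.15, adjusted p = 0.0068, trend -0.24, -1.14 with it removed). Ctnna1, α-catenin, changed by -0.66 ± 0.10, adjusted p = 0.014 (trend -0.18, -0.47 with it removed). Among integrins, Itgae, the CD103 chain that binds E-cadherin, was lower at 104 and 99.4 CPM in Rara KO, against 201 and 283 CPM in WT (-1.26 ± 0.17, adjusted p = 0.011, trend -0.22, -1.02 with it removed), Itga3 lower at -2.02 ± 0.33, adjusted p = 0.015 (trend -0.24, -1.77 with it removed) and the ligand Icam1 lower at -0.60 ± 0.12, adjusted p = 0.025 (trend -0.07, -0.52 with it removed). The sorting marker Itgax, CD11c, had 746 and 835 CPM in Rara KO, against 1001 and 1247 CPM in WT and was not called (-0.51 ± 0.14, adjusted p = 0.059). Itgam, CD11b, was not called either (0.30 ± 0.19, adjusted p = 0.3). The integrin list had 0 of the 19 tested members higher and 3 lower, and the same counts with the trend removed. That is 0 and 15.8%, against 8.88 and 9.18% of all genes. Of the 6 adhesion genes called here, 6 were also called with the length trend removed, 5 without WT 1, 3 without WT 2, 5 without Rara KO 1 and 6 without Rara KO 2.

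Genes of mature, migrating DCs were called lower more often than higher, with 1 of the 21 tested members higher and 10 lower (4.76 and 47.6%). With the trend removed 0 were higher and 10 lower, and the median log2 fold change as is was -0.84 at a median trend of 0.03. As is, the higher and lower counts moved to 0 and 3 without WT 2. Ccr7 had 10.3 and 19.7 CPM in Rara KO, against 49.2 and 73 CPM in WT (-2.02 ± 0.33, adjusted p = 0.015, trend 0.04, -2.05 with it removed). Fscn1, the actin bundler of DC dendrites, had 9.26 and 10.3 CPM in Rara KO, against 36.4 and 34.7 CPM in WT (-1.86 ± 0.14, adjusted p = 0.0038, trend -0.09, -1.75 with it removed). Ccl22, a chemokine that draws regulatory T cells, had 62.1 and 72.7 CPM in Rara KO, against 228 and 172 CPM in WT (-1.57 ± 0.17, adjusted p = 0.0066, trend 0.08, -1.63 with it removed). Cd83 changed by -1.72 ± 0.19, adjusted p = 0.0071 (trend 0.00, -1.71 with it removed). In each of these the trend was small beside the fold change. Traf1 and Cacnb3 were lower too, with log2 fold changes of -1.42 (trend -0.03, -1.37 with it removed) and -1.85 (trend -0.13, -1.71 with it removed). Ccl17 went against the list at 2049.9 and 1190.1 CPM in Rara KO, against 722 and 558 CPM in WT (1.34 ± 0.27, adjusted p = 0.025, trend 0.60, 0.77 with it removed), and was not called with the trend removed.

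Ligands that T cells read were split. The list had 1 of the 16 tested members higher and 5 lower (6.25 and 31.2%). Removal of the trend left 2 higher and 5 lower, the median log2 fold change as is being -0.19 at a median trend of -0.09. Higher and lower members numbered 0 and 4 without WT 1, 0 and 2 without WT 2, 3 and 5 without Rara KO 1. Cd276, B7-H3, had 0.355 and 0.576 CPM in Rara KO, against 5.83 and 5.36 CPM in WT (-3.56 ± 0.36, adjusted p = 0.0057, trend -0.15, -3.40 with it removed). Cd40 had 10.1 and 9.03 CPM in Rara KO, against 27.4 and 22 CPM in WT (-1.37 ± 0.17, adjusted p = 0.0085, trend 0.08, -1.44 with it removed). Cd86 had 30.1 and 48.3 CPM in Rara KO, against 66.2 and 75.5 CPM in WT (-0.85 ± 0.22, adjusted p = 0.047, trend -0.07, -0.77 with it removed), with Cd86 not called once the trend was removed (adjusted p = 0.074). Btla and Pvr changed by -0.71 ± 0.10, adjusted p = 0.011 (trend -0.15, -0.55 with it removed) and -1.30 ± 0.19, adjusted p = 0.011 (trend -0.12, -1.17 with it removed). The gene 4632428N05Rik, which encodes VISTA, was higher, with a log2 fold change of 0.74 ± 0.15, adjusted p = 0.025 (trend -0.23, 0.97 with it removed). Of the 13 genes called from both lists, 11 were also called with the length trend removed (not Ccl17 or Cd86), 11 without WT 1, 5 without WT 2, 13 without Rara KO 1 and 13 without Rara KO 2.

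MHC class II genes were called lower or not at all, with 0 of the 14 tested members higher and 5 lower (0 and 35.7%). Their median log2 fold change was -0.53 beside a median trend of 0.11, and once the trend was removed 0 were higher and 5 lower. With the trend kept, higher and lower members came to 0 and 3 without WT 1, 0 and 1 without WT 2, 0 and 9 without Rara KO 2. Ciita, the transactivator on which class II genes depend, had 58 and 62.8 CPM in Rara KO, against 188 and 279 CPM in WT (-1.95 ± 0.20, adjusted p = 0.0059, trend -0.26, -1.68 with it removed). The genes H2-DMb2 and H2-Ob changed by -0.95 ± 0.18, adjusted p = 0.021 (trend 0.43, -1.37 with it removed) and -1.15 ± 0.26, adjusted p = 0.032 (trend -0.09, -1.05 with it removed). The abundant Cd74, the invariant chain, had 12682 and 15466 CPM in Rara KO, against 20098 and 21643 CPM in WT (-0.57 ± 0.14, adjusted p = 0.043, trend 0.18, -0.74 with it removed). H2-Ab1 had 5393 and 6248 CPM in Rara KO, against 7847 and 9391 CPM in WT (-0.57 ± 0.15, adjusted p = 0.046, trend 0.26, -0.81 with it removed). For H2-DMb2, Cd74 and H2-Ab1 the trend put genes of their length above 0. Class I and immunoproteasome genes had 2 of the 16 tested members higher and 1 lower (12.5 and 6.25%, against 8.88 and 9.18% of all genes). The median log2 fold change was 0.11 at a median trend of 0.07, with 0 higher and 0 lower after the trend was removed. The higher and lower counts were 1 and 0 without WT 1, 0 and 0 without WT 2, 3 and 0 without Rara KO 1, 2 and 3 without Rara KO 2. Psmb10, Psme2 and Tapbpl changed by 0.64 (trend 0.23, 0.42 with it removed), 0.62 (trend 0.34, 0.30 with it removed) and -0.53 (trend 0.02, -0.53 with it removed) on the log2 scale. Of the 8 class I and II genes called here, 4 were also called with the length trend removed (not H2-Ob, Psmb10, Psme2 or Tapbpl), 4 without WT 1, 1 without WT 2, 5 without Rara KO 1 and 8 without Rara KO 2.

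Transcription factors of LCs and DCs were called in both directions at shares near the 8.88% higher and 9.18% lower over all tested genes, with 3 of the 24 tested members higher and 3 lower (12.5 and 12.5%). Members had a median log2 fold change of 0.02 and a median trend of -0.16, and its removal left 4 higher and 1 lower. Counts of higher and lower members were 1 and 2 without WT 1, 1 and 1 without WT 2. Cebpb, a C/EBP factor of granulocytes and macrophages at chr2:167688915-167690432, had 306 and 271 CPM in Rara KO, against 108 and 104 CPM in WT (1.45 ± 0.11, adjusted p = 0.0039, trend 0.15, 1.30 with it removed). Runx3, a factor that LCs need, at chr4:135120645-135177990, had 80.4 and 66.2 CPM in Rara KO, against 124 and 124 CPM in WT (-0.76 ± 0.13, adjusted p = 0.015, trend -0.20, -0.55 with it removed). The groups did not overlap, and with the trend removed the call was lost (adjusted p = 0.059). Bcl6, a repressor, had 22.5 and 30.3 CPM in Rara KO, against 69.2 and 73.9 CPM in WT (-1.44 ± 0.16, adjusted p = 0.0071, trend -0.16, -1.27 with it removed). Notch2 changed by 0.62 ± 0.13, adjusted p = 0.028 (trend -0.29, 0.92 with it removed) and Zeb1 by -0.69 ± 0.17, adjusted p = 0.04 (trend -0.25, -0.43 with it removed). Spi1, encoding PU.1, and Id2 had log2 fold changes of -0.22 (trend 0.21, -0.42 with it removed) and 0.04 (trend 0.23, -0.17 with it removed), and neither was called. Among inducible factors, Nr4a3 was lower at 10.3 and 14.9 CPM in Rara KO, against 36.3 and 45.1 CPM in WT (-1.69 ± 0.21, adjusted p = 0.0091, trend -0.25, -1.43 with it removed), Mafk lower at -0.72 (trend -0.11, -0.60 with it removed) and Egr2 higher at 0.43 (trend -0.13, 0.57 with it removed). The list of these inducible factors had 1 of the 23 tested members higher and 2 lower (4.35 and 8.7%), and the same counts with the trend removed. Klf9 and Klf2 moved apart, Klf9 by -1.41 ± 0.21, adjusted p = 0.013 (trend -0.15, -1.24 with it removed) and Klf2 by 1.36 ± 0.21, adjusted p = 0.014 (trend 0.07, 1.30 with it removed). Krüppel-like and Maf factors had 1 of the 11 tested members higher and 1 lower (9.09 and 9.09%) in either fit. Neither list stood far from the 8.88 and 9.18% over all genes. Of the 10 factors called here, 8 were also called with the length trend removed (not Runx3 or Zeb1), 6 without WT 1, 3 without WT 2, 9 without Rara KO 1 and 9 without Rara KO 2.

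Promoters were read from RefSeq (GRCm38.p6, 250 bases before to 50 after each start) for 9307 of the tested genes, on both strands. The C/EBP core TTGCNNAA was in 17.3% of the promoters of genes higher in both fits and 9.49% of those lower in both fits, against 10.2% of all. A pair of direct repeats of the receptor motif (AGGTCA or its variants AGTTCA and GGGTCA and also GGTTCA), spaced by 5 bases (DR5), was in 3 promoters of all tested genes, and by 2 bases (DR2) in 9. AGGTCA alone, which such a pair can contain, was in 19.2% of genes higher in both fits and 14.4% of genes lower in both, against 14.9% of all. The RUNX motif TGTGGTT was in 6.13% and 5.13%, against 4.71%, and the PU.1 motif GAGGAAGT in 7.52% and 6.92%, against 4.20%. A match is a description of letters and not a site of binding. The lines below show the stretch around a C/EBP core in 6 genes higher in Rara KO and then in 3 lower ones, Ly75, Trim7 and Fcgrt, as examples of both directions. They are read on the gene's own strand with the core in capitals. Fcgrt, the neonatal Fc receptor, had a log2 fold change of -0.46 ± 0.11, adjusted p = 0.035 (trend 0.09, -0.55 with it removed).
Il6: tcacaTTGTGCAAtctta
Asb2: gggtaTTATGCAAgggcc
Ear2: gctggTTGCACAAgcaga
Ear1: gctggTTGCACAAgcaga
Il1rl1: tgtatTTGCATAAaacta
Rnase2a: ctgcaTTGCATAAaagga
Ly75: caaatTTGCTTAAgaaga
Trim7: ccattTTGCACAAagcct
Fcgrt: gtgtgTTAGGCAAccatg
They lie at chr5:30012981-30012998 (Il6), chr12:103356230-103356247 (Asb2), chr14:44102559-44102576 (Ear2), chr14:43819719-43819736 (Ear1), chr1:40429531-40429548 (Il1rl1), chr14:51256317-51256334 (Rnase2a), chr2:60383496-60383513 (Ly75), chr11:48825941-48825958 (Trim7) and chr7:45104049-45104066 (Fcgrt). Those of Ear1 and Ear2 are identical over all 18 bases. Only 1 gene called lower in both fits held a DR5 pair. It was Tnfsf13b, encoding BAFF, a survival factor for B cells, with a log2 fold change of -0.56 ± 0.11, adjusted p = 0.024 (trend 0.10, -0.65 with it removed), and its pair at chr8:10006240-10006266 is shown with the spacer in capitals too.
Tnfsf13b: agcagAGTTCAGATGGAGTTCAgtcac

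Receptors of hematopoietic growth factors, with a few of their ligands, were called lower or not at all. The list had 0 of the 9 tested members higher and 4 lower (0 and 44.4%). At a median trend of -0.20, the median log2 fold change was -0.61, and the fit without the trend had 0 higher and 3 lower. As is, the higher and lower counts moved to 0 and 2 without WT 2. Csf3r, the G-CSF receptor, had 32.8 and 31.1 CPM in Rara KO, against 88.7 and 89.5 CPM in WT (-1.48 ± 0.10, adjusted p = 0.0036, trend -0.20, -1.27 with it removed). Csf1r, the receptor that LCs need in skin, had 587 and 547 CPM in Rara KO, against 1167 and 1259 CPM in WT (-1.10 ± 0.11, adjusted p = 0.0059, trend -0.19, -0.89 with it removed). Its ligand Csf1 changed by -1.04 ± 0.15, adjusted p = 0.012 (trend -0.22, -0.81 with it removed). Csf2rb2, a β chain of the IL-3 receptor, changed by -0.61 ± 0.15, adjusted p = 0.041 (trend -0.23, -0.38 with it removed) and was not called once the trend was removed. Downstream, the JAK, STAT and SOCS list had 0 of the 22 tested members higher and 4 lower (0 and 18.2%). With the trend removed 0 were higher and 3 lower, and the median log2 fold change as is was -0.42 at a median trend of -0.19. Higher and lower members numbered 0 and 1 without WT 2, 0 and 10 without Rara KO 2. Socs5 had 29.9 and 26.6 CPM in Rara KO, against 71.1 and 66.4 CPM in WT (-1.29 ± 0.12, adjusted p = 0.0047, trend -0.22, -1.06 with it removed), and the kinases Jak2 and Tyk2 and the inhibitor Socs3 were lower, with log2 fold changes of -0.86 (trend -0.24, -0.62 with it removed), -0.80 (trend -0.23, -0.57 with it removed) and -0.91 (trend -0.10, -0.80 with it removed). The trend lay below 0 at the length of each of these genes. In the TGFβ pathway, to which the culture's TGF-β1 signals, calls were no more frequent than the 8.88% higher and 9.18% lower over all tested genes. The list had 1 of the 23 tested members higher and 2 lower (4.35 and 8.7%). Removal of the trend left 1 higher and 1 lower, the median log2 fold change as is being -0.12 at a median trend of -0.24. With the trend kept, higher and lower members came to 1 and 1 without WT 1, 1 and 1 without WT 2. Ltbp3, a protein that stores latent TGFβ, was higher at 31.4 and 36.4 CPM in Rara KO, against 4.46 and 10.7 CPM in WT (2.15 ± 0.38, adjusted p = 0.019, trend -0.24, 2.41 with it removed), and Smurf1, a ubiquitin ligase that acts on the pathway, lower at 42.1 and 43.5 CPM in Rara KO, against 77.2 and 89.7 CPM in WT (-0.96 ± 0.12, adjusted p = 0.0083, trend -0.24, -0.71 with it removed). Tgfbr3 was lower at 0.0788 and 0.182 CPM in Rara KO, against 0.63 and 1.03 CPM in WT (-2.61 ± 0.68, adjusted p = 0.048, trend -0.26, -2.34 with it removed). Of the 11 genes called here, 8 were also called with the length trend removed (not Csf2rb2, Socs3 or Tgfbr3), 9 without WT 1, 5 without WT 2, 9 without Rara KO 1 and 11 without Rara KO 2.

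Chemokine ligands and cytokines were called higher more often than lower. Chemokine ligands had 9 of the 19 tested members higher and 3 lower (47.4 and 15.8%). Their median log2 fold change was 1.14 beside a median trend of 0.30, and once the trend was removed 7 were higher and 3 lower. The higher and lower counts were 5 and 1 without WT 2. Cxcl14 had 16.3 and 7.76 CPM in Rara KO, against 0.978 and 0.888 CPM in WT (3.68 ± 0.41, adjusted p = 0.0071, trend 0.07, 3.63 with it removed). Ccl9, a chemokine of the CCR1 axis, had 2192 and 2696 CPM in Rara KO, against 796 and 999 CPM in WT (1.45 ± 0.17, adjusted p = 0.0075, trend -0.13, 1.59 with it removed). Ccl4 had 66.8 and 79.8 CPM in Rara KO, against 32.1 and 28.2 CPM in WT (1.28 ± 0.14, adjusted p = 0.0064, trend 0.50, 0.80 with it removed). Pf4, platelet factor 4, had 68 and 77.9 CPM in Rara KO, against 30.4 and 26.7 CPM in WT (1.35 ± 0.13, adjusted p = 0.0049, trend 0.55, 0.83 with it removed). Short chemokine genes sit where the trend is above 0, so the median of the list was 1.14 before and 0.77 after its removal. Of receptors, Ccr2, which brings monocytes to tissue, had 578 and 616 CPM in Rara KO, against 230.0 and 199 CPM in WT (1.48 ± 0.12, adjusted p = 0.0039, trend -0.18, 1.66 with it removed). Ccr9, a gut-homing receptor that is also in the list of retinoid targets, was lower at 0.394 and 0.333 CPM in Rara KO, against 2.5 and 1.57 CPM in WT (-2.48 ± 0.49, adjusted p = 0.023, trend -0.22, -2.26 with it removed). The chemokine receptor list had 1 of the 12 tested members higher and 2 lower. That is 8.33 and 16.7%, against 8.88 and 9.18% of all genes, and 1 and 2 were called once the trend was removed.

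Cytokines had 8 of the 20 tested members higher and 2 lower (40 and 10%). The median log2 fold change was 0.51 at a median trend of 0.11, with 7 higher and 2 lower after the trend was removed. Counts of higher and lower members were 4 and 1 without WT 1, 2 and 1 without WT 2. Il1a had 49.3 and 44.7 CPM in Rara KO, against 21.2 and 16.4 CPM in WT (1.32 ± 0.16, adjusted p = 0.0082, trend 0.04, 1.30 with it removed). Il1rn, the antagonist of IL-1, had 444 and 444 CPM in Rara KO, against 305 and 274 CPM in WT (0.62 ± 0.11, adjusted p = 0.018, trend -0.09, 0.73 with it removed). Osm had 133 and 95.7 CPM in Rara KO, against 63 and 54 CPM in WT (0.96 ± 0.18, adjusted p = 0.02, trend 0.05, 0.93 with it removed). Il6 was low in all libraries, at 2.01 and 1.46 CPM in Rara KO, against 0.283 and 0.279 CPM in WT (2.61 ± 0.48, adjusted p = 0.02, trend 0.30, 2.33 with it removed). Of the 10 chemokine, receptor and cytokine genes named as called in this and the preceding paragraph, 10 were also called with the length trend removed, 8 without WT 1, 6 without WT 2, 10 without Rara KO 1 and 10 without Rara KO 2.

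Macrophage genes were split between a higher and a lower part. The list had 10 of the 24 tested members higher and 2 lower (41.7 and 8.33%). Members had a median log2 fold change of 0.55 and a median trend of 0.07, and its removal left 6 higher and 1 lower. As is, the higher and lower counts moved to 4 and 1 without WT 1, 3 and 1 without WT 2, 12 and 1 without Rara KO 1. Arg1, arginase 1, at chr10:24915207-24927470, had 464 and 388 CPM in Rara KO, against 20.5 and 12.4 CPM in WT (4.70 ± 0.27, adjusted p = 0.0034, trend 0.17, 4.55 with it removed). Spp1, osteopontin, one of the most abundant of these, had 8069.5 and 8002 CPM in Rara KO, against 3906 and 4417 CPM in WT (0.95 ± 0.12, adjusted p = 0.0093, trend 0.12, 0.85 with it removed). Mrc1, the mannose receptor CD206, had 219.9 and 279 CPM in Rara KO, against 93.1 and 128 CPM in WT (1.17 ± 0.19, adjusted p = 0.015, trend -0.24, 1.43 with it removed). Cd14 had 171 and 148 CPM in Rara KO, against 93.1 and 81.6 CPM in WT (0.87 ± 0.13, adjusted p = 0.012, trend 0.11, 0.77 with it removed). Csf1r went the other way, as above, and so did Adgre1, the macrophage antigen F4/80, at 455 and 548 CPM in Rara KO, against 699 and 823 CPM in WT (-0.60 ± 0.14, adjusted p = 0.038, trend -0.15, -0.44 with it removed). A shorter set of 6 macrophage markers summed to 1171 and 1303 CPM in Rara KO, against 1946 and 2178 CPM in WT, with 2 higher and 2 lower. The Fcγ receptors Fcgr4 and Fcgr1 were higher, with Fcgr4 at 70.4 and 116 CPM in Rara KO, against 16.8 and 29.2 CPM in WT (2.01 ± 0.33, adjusted p = 0.015, trend 0.24, 1.78 with it removed) and Fcgr1 at 89.4 and 141 CPM in Rara KO, against 51.2 and 51.3 CPM in WT (1.17 ± 0.21, adjusted p = 0.019, trend -0.08, 1.26 with it removed). Stab1, a scavenger receptor, and Axl, a receptor for apoptotic cells, changed by 1.10 ± 0.14, adjusted p = 0.009 (trend -0.28, 1.38 with it removed) and 0.61 ± 0.12, adjusted p = 0.022 (trend -0.24, 0.85 with it removed). Their list, of genes for the uptake of dying cells, had 2 of the 17 tested members higher and 2 lower. That is 11.8 and 11.8%, against 8.88 and 9.18% of all genes. Its median log2 fold change was 0.02 at a median trend of -0.23, with 4 higher and 2 lower after the trend was removed. The 2 lower members, Mfge8 and Megf11, are given and counted in other paragraphs. Spn, CD43, was lower, with a log2 fold change of -1.08 ± 0.11, adjusted p = 0.0056 (trend -0.23, -0.85 with it removed). Of the 11 genes called here, 10 were also called with the length trend removed (not Adgre1), 7 without WT 1, 7 without WT 2, 9 without Rara KO 1 and 11 without Rara KO 2.

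Complement genes and receptors had 7 of the 19 tested members higher and 0 lower (36.8 and 0%). At a median trend of -0.10, the median log2 fold change was 0.35, and the fit without the trend had 5 higher and 0 lower. Higher and lower members numbered 3 and 0 without WT 1, 3 and 0 without WT 2, 7 and 1 without Rara KO 2. C5ar1, the receptor for C5a, had 176 and 184 CPM in Rara KO, against 58.4 and 45.3 CPM in WT (1.79 ± 0.15, adjusted p = 0.0039, trend -0.08, 1.89 with it removed). C1ra, C5ar2 and Cfp, properdin, changed by 1.19 (trend -0.10, 1.31 with it removed), 0.98 (trend -0.18, 1.18 with it removed) and 0.76 (trend 0.15, 0.62 with it removed). The innate sensors were mixed. The list of Toll-like receptors and CD14 had 4 of the 27 tested members higher and 2 lower. That is 14.8 and 7.41%, against 8.88 and 9.18% of all genes, and 4 and 1 were called with the trend removed. Unc93b1, which carries nucleic-acid-sensing Toll-like receptors to endosomes, had 494 and 616 CPM in Rara KO, against 214 and 263 CPM in WT (1.22 ± 0.16, adjusted p = 0.01, trend -0.02, 1.25 with it removed), Ly86 (MD-1) changed by 1.09 ± 0.14, adjusted p = 0.009 (trend 0.33, 0.76 with it removed) and Tlr13 by 0.67 (trend -0.20, 0.88 with it removed). Tlr9, the sensor for CpG DNA, was lower at 1.73 and 4.0 CPM in Rara KO, against 9.46 and 15.8 CPM in WT (-2.12 ± 0.43, adjusted p = 0.026, trend -0.17, -1.95 with it removed). Of other C-type lectins, Clec4a2 and Clec4b1 were higher, with log2 fold changes of 1.14 ± 0.11, adjusted p = 0.0048 (trend -0.08, 1.24 with it removed) and 1.85 ± 0.24, adjusted p = 0.01 (trend 0.43, 1.43 with it removed). Of the 10 genes called here, 10 were also called with the length trend removed, 7 without WT 1, 5 without WT 2, 10 without Rara KO 1 and 10 without Rara KO 2.

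Interferon-stimulated genes had 0 of the 26 tested members higher and 1 lower (0 and 3.85%, against 8.88 and 9.18% of all genes). With the trend removed 0 were higher and 1 lower, and the median log2 fold change as is was -0.52 at a median trend of -0.07. With the trend kept, higher and lower members came to 4 and 2 without Rara KO 1, 1 and 20 without Rara KO 2. On the lower side of 0 lay 20 of the 26, beside 6155 of all 12111 tested genes. The direction of the list rested on 1 library, its median log2 fold change being 0.03 without Rara KO 1 and -1.33 without Rara KO 2. Ifi44 was the gene called lower, at 5.95 and 8.16 CPM in Rara KO, against 34.4 and 134 CPM in WT (-3.57 ± 0.64, adjusted p = 0.019, trend -0.12, -3.44 with it removed), with WT 2 well above WT 1. Ifitm3 had 149 and 460.3 CPM in Rara KO, against 79.5 and 98.6 CPM in WT and did not pass the test (1.77 ± 0.48, adjusted p = 0.053).

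Lysosome genes had 13 of the 36 tested members higher and 1 lower (36.1 and 2.78%). Removal of the trend left 10 higher and 0 lower, the median log2 fold change as is being 0.37 at a median trend of -0.02. The higher and lower counts were 2 and 0 without WT 1, 0 and 0 without WT 2, 8 and 0 without Rara KO 1, 6 and 0 without Rara KO 2. Lamtor4, Lamtor2 and Lamtor5, subunits of the Ragulator complex on lysosomes, changed by 0.93 (trend 0.39, 0.56 with it removed), 0.63 (trend 0.56, 0.09 with it removed) and 0.53 (trend 0.38, 0.16 with it removed), and of these Lamtor4 alone was called with the trend removed. Lipa, the lysosomal acid lipase, changed by 0.52 ± 0.11, adjusted p = 0.029 (trend -0.13, 0.66 with it removed). In lipid handling, Lpl, lipoprotein lipase, had 2478 and 1420.0 CPM in Rara KO, against 681 and 488 CPM in WT (1.74 ± 0.29, adjusted p = 0.016, trend -0.20, 1.95 with it removed). Pparg had 60.8 and 50.9 CPM in Rara KO, against 34.2 and 39.1 CPM in WT (0.61 ± 0.14, adjusted p = 0.034, trend -0.03, 0.66 with it removed). Srebf1 was lower, with a log2 fold change of -0.50 (trend -0.21, -0.28 with it removed). The lipid handling list had 3 of the 24 tested members higher and 1 lower (12.5 and 4.17%), and 4 and 0 with the trend removed. Metalloproteinases and their inhibitors had 2 of the 18 tested members higher and 2 lower (11.1 and 11.1%), and 4 and 1 with the trend removed. Over all genes the shares as is were 8.88 and 9.18%. Among proteases and their inhibitors, Timp1 had 36.1 and 23.3 CPM in Rara KO, against 10.2 and 8.89 CPM in WT (1.64 ± 0.23, adjusted p = 0.011, trend 0.38, 1.28 with it removed) and Adam10 0.65 (trend -0.22, 0.88 with it removed) on the log2 scale, both higher, while Mmp14 and Mmp25 were lower, with log2 fold changes of -0.59 (trend -0.08, -0.49 with it removed) and -1.77 (trend -0.16, -1.59 with it removed). Of the 11 genes called here, 7 were also called with the length trend removed (not Lamtor2, Lamtor5, Srebf1 or Mmp25), 4 without WT 1, 0 without WT 2, 6 without Rara KO 1 and 10 without Rara KO 2.

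Respiratory chain and ribosome genes, which are short, gave many calls that ended with the trend. OXPHOS nuclear subunits had 54 of the 76 tested members higher and 0 lower (71.1 and 0%). Their median log2 fold change was 0.61 beside a median trend of 0.48, and once the trend was removed 6 were higher and 0 lower. Counts of higher and lower members were 31 and 0 without WT 1, 4 and 0 without WT 2, 52 and 1 without Rara KO 2. Cox5a had 489.6 and 410.3 CPM in Rara KO, against 199 and 176 CPM in WT (1.27 ± 0.13, adjusted p = 0.0064, trend 0.48, 0.80 with it removed), and Atp5k and Ndufa2 1.15 (trend 0.62, 0.55 with it removed) and 1.06 (trend 0.54, 0.54 with it removed) on the log2 scale, and these 3 were called with the trend removed too. Atp5j2 and Ndufa3, at 0.79 (trend 0.62, 0.20 with it removed) and 0.98 (trend 0.62, 0.38 with it removed), were not. Cytosolic ribosomal proteins had 37 of the 80 tested members higher and 0 lower (46.2 and 0%). The median log2 fold change was 0.41 at a median trend of 0.47, with 2 higher and 1 lower after the trend was removed. As is, the higher and lower counts moved to 12 and 0 without WT 1, 0 and 0 without WT 2, 14 and 0 without Rara KO 1. Rps14, Rpl38, Rps29, Rpl36a and Rpl37a had log2 fold changes of 0.77 (trend 0.54, 0.24 with it removed), 0.81 (trend 0.62, 0.22 with it removed), 0.76 (trend 0.62, 0.17 with it removed), 0.84 (trend 0.62, 0.24 with it removed) and 0.79 (trend 0.55, 0.27 with it removed), and none was called with the trend removed. Ribosomal protein genes have many processed copies in the genome, and by the study's methods only uniquely mapped reads were counted. The part of this in their values was not tested.

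Other metabolic families gave calls in both directions. Glycolysis and hypoxia genes had 5 of the 32 tested members higher and 4 lower (15.6 and 12.5%, against 8.88 and 9.18% of all genes). Members had a median log2 fold change of 0.09 and a median trend of -0.12, and its removal left 5 higher and 2 lower. Higher and lower members numbered 1 and 1 without WT 2, 4 and 2 without Rara KO 1. Pfkl, a phosphofructokinase, had 114 and 119 CPM in Rara KO, against 59.5 and 56.1 CPM in WT (1.02 ± 0.10, adjusted p = 0.0057, trend -0.19, 1.21 with it removed), while its relative Pfkp was lower at 173 and 185 CPM in Rara KO, against 285 and 317 CPM in WT (-0.75 ± 0.11, adjusted p = 0.012, trend -0.21, -0.54 with it removed). Ndrg1 had 25.3 and 26.4 CPM in Rara KO, against 58.3 and 65.6 CPM in WT (-1.26 ± 0.12, adjusted p = 0.0048, trend -0.12, -1.13 with it removed), and Higd1a and Bnip3 were higher, with log2 fold changes of 0.73 (trend 0.06, 0.69 with it removed) and 0.66 (trend 0.09, 0.58 with it removed). Cholesterol and fatty acid synthesis had 0 of the 29 tested members higher and 6 lower (0 and 20.7%). At a median trend of -0.18, the median log2 fold change was -0.03, and the fit without the trend had 1 higher and 3 lower. With the trend kept, higher and lower members came to 0 and 0 without WT 2. Srebf2, its main regulator, had 188 and 188 CPM in Rara KO, against 305 and 349 CPM in WT (-0.80 ± 0.11, adjusted p = 0.011, trend -0.22, -0.56 with it removed). Idi1, Fasn, Stard4 and Lss had log2 fold changes of -0.72 (trend -0.11, -0.59 with it removed), -0.75 (trend -0.28, -0.46 with it removed), -0.90 (trend -0.13, -0.75 with it removed) and -0.62 (trend -0.26, -0.35 with it removed). Cell cycle genes had 6 of the 37 tested members higher and 2 lower (16.2 and 5.41%, against 8.88 and 9.18% of all genes). With the trend removed 4 were higher and 2 lower, and the median log2 fold change as is was 0.21 at a median trend of -0.11. The higher and lower counts were 1 and 2 without WT 1, 0 and 1 without WT 2, 1 and 2 without Rara KO 1. Ccnd1, a D-type cyclin, was lower at 149 and 139 CPM in Rara KO, against 267 and 232 CPM in WT (-0.79 ± 0.12, adjusted p = 0.012, trend -0.19, -0.59 with it removed). Birc5, survivin, was higher at 194 and 145 CPM in Rara KO, against 101 and 69.3 CPM in WT (0.99 ± 0.22, adjusted p = 0.032, trend -0.17, 1.17 with it removed). Of the CDK inhibitors Cdkn1a was lower, with a log2 fold change of -0.70 (trend 0.03, -0.71 with it removed) and Cdkn2c higher at 0.67 (trend -0.02, 0.71 with it removed), and Cdk4 was higher, with a log2 fold change of 0.57 (trend 0.21, 0.38 with it removed). Of the 15 genes called here, 11 were also called with the length trend removed (not Bnip3, Fasn, Lss or Cdk4), 12 without WT 1, 3 without WT 2, 13 without Rara KO 1 and 15 without Rara KO 2.

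The remaining genes of the naming rule were named for the size of their folds. The largest folds with the trend removed were picked only among genes called in both fits. For those genes, upwards and downwards, a call with the trend removed was a condition and not a result. Higher were Camkk1, a kinase that activates CaM kinases, at 11.8 and 10.4 CPM in Rara KO, against 0.283 and 0.558 CPM in WT (4.66 ± 0.36, adjusted p = 0.0039, trend -0.17, 4.84 with it removed), and Camk2n1, an inhibitor of CaM kinase II, at 8.79 and 10.8 CPM in Rara KO, against 0.87 and 0.837 CPM in WT (3.52 ± 0.26, adjusted p = 0.0038, trend -0.18, 3.71 with it removed). Jchain, which joins antibody polymers, had 7.17 and 3.33 CPM in Rara KO, against 0.478 and 0.38 CPM in WT (3.61 ± 0.49, adjusted p = 0.011, trend 0.01, 3.63 with it removed). Fabp7, a fatty acid binding protein, had 49.5 and 27.3 CPM in Rara KO, against 3.57 and 5.83 CPM in WT (3.01 ± 0.36, adjusted p = 0.0078, trend 0.44, 2.58 with it removed). Ston2, an endocytic adaptor, had 5.56 and 6.79 CPM in Rara KO, against 0.63 and 1.41 CPM in WT (2.57 ± 0.43, adjusted p = 0.015, trend -0.28, 2.87 with it removed). Of all 14 genes with the largest folds upwards, 14 were also called with the length trend removed, 14 without WT 1, 12 without WT 2, 14 without Rara KO 1 and 14 without Rara KO 2.

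Downwards, Slc6a4, the serotonin transporter, had 6.54 and 3.03 CPM in Rara KO, against 48.4 and 57.6 CPM in WT (-3.49 ± 0.35, adjusted p = 0.0056, trend -0.10, -3.36 with it removed). Plek2, pleckstrin 2, had 2.4 and 2.09 CPM in Rara KO, against 22.3 and 18.1 CPM in WT (-3.17 ± 0.20, adjusted p = 0.0034, trend 0.14, -3.30 with it removed). S1pr3, a receptor for sphingosine 1-phosphate, had 0.394 and 0.819 CPM in Rara KO, against 6.63 and 5.99 CPM in WT (-3.34 ± 0.39, adjusted p = 0.0075, trend -0.22, -3.12 with it removed). Irs2, an insulin receptor substrate, had 0.552 and 1.12 CPM in Rara KO, against 4.17 and 9.89 CPM in WT (-3.05 ± 0.55, adjusted p = 0.019, trend -0.20, -2.83 with it removed). Megf11, a relative of engulfment receptors, had 0.828 and 0.364 CPM in Rara KO, against 7.74 and 10.6 CPM in WT (-3.98 ± 0.42, adjusted p = 0.0062, trend -0.26, -3.71 with it removed). Dmpk, Fam217b, Trim7 and Hapln3 had log2 fold changes of -3.03 (trend -0.12, -2.89 with it removed), -3.13 (trend -0.02, -3.10 with it removed), -2.88 (trend 0.20, -3.07 with it removed) and -2.81 (trend 0.18, -2.98 with it removed). Of the 13 genes named for the largest folds downwards, 13 were also called with the length trend removed, 13 without WT 1, 10 without WT 2, 13 without Rara KO 1 and 13 without Rara KO 2.

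Markers of other cells were checked in the same libraries. The 7 DC markers summed to 22779 and 27960.0 CPM in Rara KO, against 35334 and 39670.0 CPM in WT, and the 5 LC markers to 2528 and 2150.1 CPM in Rara KO, against 2954 and 2830.4 CPM in WT. Of these 5 LC markers, 1 was called higher and 4 lower. Most of their sum came from Cdh1 and Cd24a, and Cd207 added little. Cdh1 had 954 and 774 CPM in Rara KO, against 1513 and 1467 CPM in WT. Cd24a had 1489 and 1301 CPM in Rara KO, against 1027 and 952 CPM in WT. The 7 neutrophil markers summed to 2558 and 681 CPM in Rara KO, against 2422 and 537 CPM in WT, so that replicate 1 of either genotype was several times replicate 2, and none was called. A wider list of neutrophil and granule genes had 1 of the 19 tested members higher and 1 lower (5.26 and 5.26%, against 8.88 and 9.18% of all genes). Log2 fold changes were above 0 in 11 and below in 8. Csf3r above was the member called lower. Padi4 lay the other way at 11.2 and 10.6 CPM in Rara KO, against 5.82 and 2.92 CPM in WT. So did Cebpe at 9.85 and 7.12 CPM, against 5.67 and 3.95 CPM. The sums of T, B, NK, mast cell and erythroid markers were at most 7.13 CPM in any library, with 2 of 4 erythroid markers at 0 throughout. Klrb1c, NK1.1, was called at 3.03 and 3.58 CPM in Rara KO, against 0.565 and 0.469 CPM in WT (2.68 ± 0.37, adjusted p = 0.011, trend -0.08, 2.78 with it removed).

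Some eosinophil genes were higher in Rara KO. The wider list of mast cell, basophil and eosinophil genes had 5 of the 14 tested members higher and 0 lower (35.7 and 0%). Removal of the trend left 4 higher and 0 lower, the median log2 fold change as is being 1.42 at a median trend of 0.11. Counts of higher and lower members were 3 and 0 without WT 2, 5 and 1 without Rara KO 1, 8 and 1 without Rara KO 2. The 23 genes summed to 459 and 324 CPM in Rara KO, against 139.6 and 176 CPM in WT. Of the 14 tested members, 10 had log2 fold changes above 0 and 4 below, beside 5956 and 6155 of all tested genes. Hdc, Mcpt8 and Cpa3 were among those below 0, and none was called. Hdc had 2.36 and 0.545 CPM in Rara KO, against 7.19 and 4.11 CPM in WT. Mcpt8 had 0.985 and 0.849 CPM, against 2.24 and 1.17 CPM, and Cpa3 0.236 and 0.394 CPM, against 0.522 and 0.710 CPM. The defining mast cell and basophil genes Cpa3, Mcpt8, Ms4a2 and Fcer1a summed to at most 3.04 CPM in any library. Ear2, an eosinophil ribonuclease, had 142 and 104 CPM in Rara KO, against 18.7 and 24.4 CPM in WT (2.51 ± 0.20, adjusted p = 0.0039, trend 0.47, 2.05 with it removed). Its near copy Ear1 had 34.1 and 11.1 CPM in Rara KO, against 4.57 and 6.81 CPM in WT (1.97 ± 0.52, adjusted p = 0.047, trend 0.47, 1.52 with it removed). Only uniquely mapped reads were counted for either. Prg2, the major basic protein, had 44.1 and 23.4 CPM in Rara KO, against 8.35 and 9.83 CPM in WT (1.89 ± 0.30, adjusted p = 0.015, trend 0.40, 1.499 with it removed). Siglecf, also carried by alveolar macrophages, had 90.6 and 78.6 CPM in Rara KO, against 27.9 and 39.9 CPM in WT (1.32 ± 0.19, adjusted p = 0.011, trend -0.07, 1.402 with it removed). Il1rl1, the receptor for IL-33, had 15 and 12.9 CPM in Rara KO, against 2.54 and 2.11 CPM in WT (2.59 ± 0.21, adjusted p = 0.0039, trend -0.27, 2.86 with it removed). Rnase2a, of the same family as Ear2, had 21.1 and 28.9 CPM in Rara KO, against 1.83 and 5.17 CPM in WT (2.81 ± 0.46, adjusted p = 0.015, trend 0.48, 2.32 with it removed). Cd200r3, an activating receptor of mast cells and basophils in mice, had 5.56 and 9.0 CPM in Rara KO, against 0.565 and 0.799 CPM in WT (3.40 ± 0.37, adjusted p = 0.0068, trend -0.01, 3.42 with it removed). Epx, eosinophil peroxidase, had 65.6 and 28.3 CPM in Rara KO, against 10.9 and 21.5 CPM in WT and did not pass the test (1.53 ± 0.46, adjusted p = 0.069). The part of such cells in the other results was not tested. Of the 5 called members of the list, 4 were also called with the length trend removed (not Ear1), 4 without WT 1, 3 without WT 2, 5 without Rara KO 1 and 5 without Rara KO 2.

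**Figure D4:**
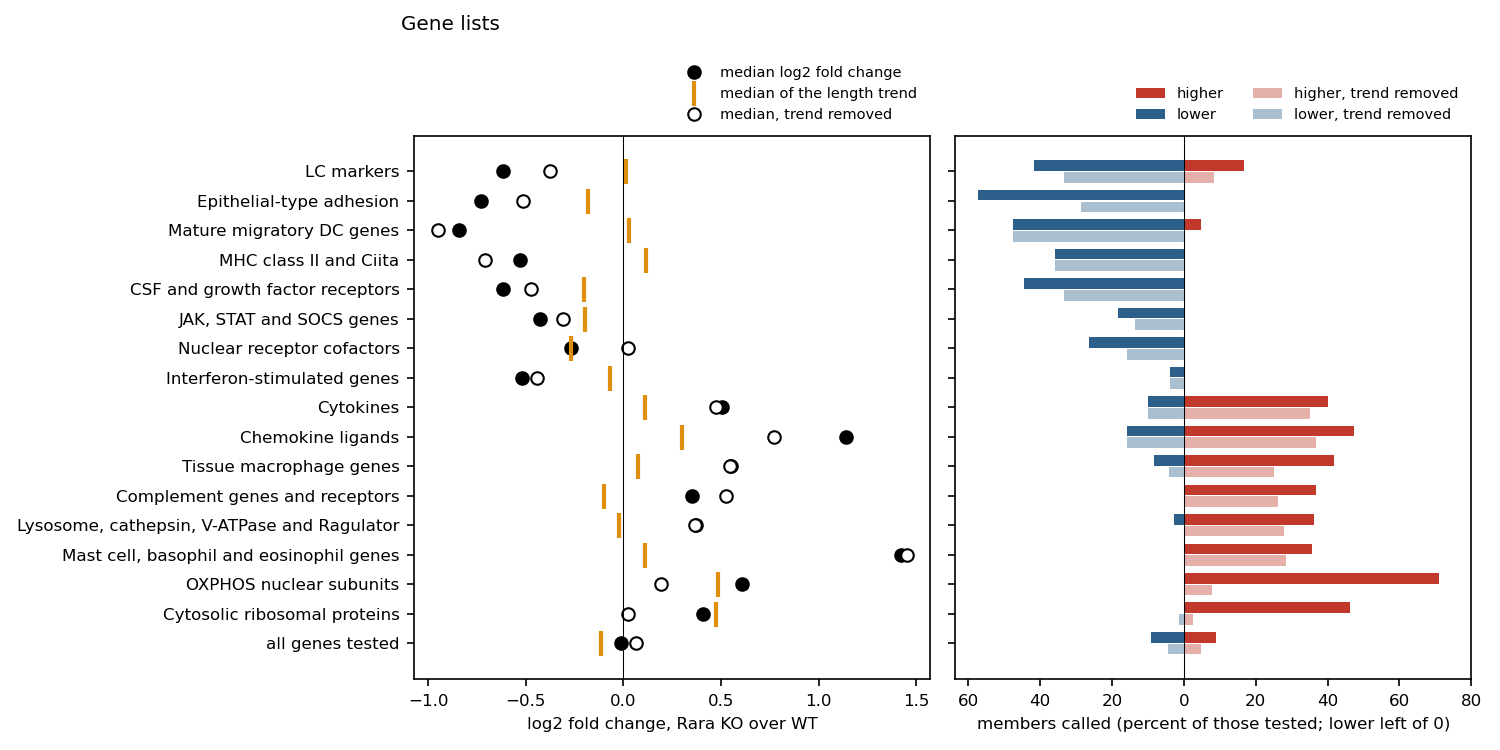
Left, for 16 gene lists and all tested genes, the median log2 fold change (Rara KO over WT, filled), the median of the length trend at the members' lengths (orange bar) and the median with the trend removed (open). Right, the percent of tested members called higher (right of 0) and lower (left of 0), as is (dark) and with the trend removed (pale). Of OXPHOS genes 54 of 76 were higher as is and 6 once the trend was removed.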

How the data were processed

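Raw counts per gene were deposited by the authors. RNA of sorted CD11c+ cells was made into stranded mRNA libraries, sequenced from both ends, aligned with STAR to mm10 and counted over the exons of RefSeq genes with featureCounts on the reverse strand, per the study's methods. Their versions are not stated in the sources read. The deposited counts were used as they stand, and columns with the authors' own comparisons were not used. Of the series, 4 libraries entered the main fit. Genes with at least 0.5 CPM in 2 of 4 libraries were fitted with edgeR 4.0.16 in R 4.3.3, with TMM factors and the quasi-likelihood test, and p-values were adjusted by Benjamini-Hochberg over all 12111 genes. CPM uses the TMM-scaled library sizes. The trend on length is a natural spline with 4 degrees of freedom on log2 of the deposited exon length, taken out of each library as an offset for the adjusted fit. Median log2 fold change was -0.01 in the main fit and 0.06 with the trend removed. The common biological coefficient of variation was 16.0%. Both fits were tested on simulated counts with known changes. On them, with no trend, the main fit called 14.9, 67.2 and 93.9% of genes changed 1.5-, 2- and 4-fold among 12111 genes. Where a trend of -0.3 per doubling of length was simulated, steeper than the straight-line slope of -0.206 in the data, 8.61% of unchanged genes were called by the main fit and 0.201% once it was removed.

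Members and gene lists were chosen with earlier results of these data known. Genes named are Rara, genes the study's text names, the 12 largest folds in each direction in each fit (called, at least 5 CPM in the higher group, no overlap between groups, at least 200 bases), up to 5 members with the smallest p of each list, and called members of lists of other cell types or sex. Adgre1, Ccl17, Cd24a, Epx and Tnfsf13b were named after their values were seen, as were the genes with a printed promoter stretch. Total counts of these 4 libraries ranged from 26325627 to 76077813. Some genes that the rule picks are not reported here. The alternatives tried are in the closing section.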

Additional observations from a re-analysis of the deposited data

How the results depend on the processing

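Of the 159 named genes that were called, 156 stayed called in the same direction with RLE and 156 with upper-quartile factors, 152 with library totals, 158 of 158 with DESeq2, 151 with all 8 libraries in the fit, 143 with all 4 WT libraries as controls, 126 with the length trend removed, 121 without WT 1 and 67 without WT 2. None of the 159 changed sign in any of these settings. Most were named for a small p or a large fold, so their counts do not stand for all calls. The same holds for the tallies that close the paragraphs above. Of all 2187 calls, 2096 stayed with RLE factors, 2079 with upper-quartile factors, 1768 with library totals and 981 with the length trend removed. Counts of genes higher in Rara KO, 1075 as reported, were 656 with library totals, 1647 with DESeq2, 1703 with all 8 libraries, 1705 with all 4 WT libraries as controls, 592 with the length trend removed, 110 at an adjusted p under 0.01 and 243 with at least 2-fold change. Genes lower, 1112 as reported, were 1892 with library totals, 1672 with no filter on low counts (16319 genes tested), 534 with the length trend removed, 176 at an adjusted p under 0.01 and 436 with at least 2-fold change. Over the fits without 1 library each, they ran over 142 to 1315 higher and 168 to 1542 lower. With a replicate block the counts were 2447 higher and 2347 lower, and with the block and the length trend removed 2402 and 1474, or 3876 together, against 1126 without the block. The replicate numbers are not given as shared batches, the deviations of same-numbered libraries correlated at 0.31, and the block changed no called gene's direction. With the trend removed, in fits chosen after seeing the data, genes called ran over 228 to 2277 without 1 library each. The trend held 15.1% of the variance for genes of at least 5 CPM, and 4.51 to 9.97% without 1 library each.

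Rara, not called as reported, was called at -0.722 with library totals, -0.575 with DESeq2, -0.595 with no filter, -0.600 with all 4 WT libraries, -0.608 with the replicate block and -0.393 with the block and the trend removed, and ran over -0.902 to -0.335 without 1 library each. Id2, never called, changed sign to -0.087 with library totals, -0.169 with the trend removed and -0.186 with the block and the trend removed, and ran over -0.214 to 0.264 without 1 library each. The cause of these differences was not tested. With 2 libraries a group, and 1 left in a group when a library is left out, the lone library is taken to vary like the others.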

Other observations

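These families were picked after the data were seen, for the length of their genes. Mitochondrial ribosomal proteins had 33 of the 77 tested members higher and 0 lower (42.9 and 0%). Their median log2 fold change was 0.46 beside a median trend of 0.31, and once the trend was removed 9 were higher and 0 lower. As is, the higher and lower counts moved to 13 and 0 without WT 1, 1 and 0 without WT 2, 19 and 0 without Rara KO 1. Proteasome subunits, which degrade ubiquitinated proteins, had 10 of the 38 tested members higher and 0 lower (26.3 and 0%). The median log2 fold change was 0.32 at a median trend of 0.18, with 0 higher and 0 lower after the trend was removed. Higher and lower members numbered 3 and 0 without WT 1, 0 and 0 without WT 2, 4 and 0 without Rara KO 1. LSm and Sm proteins, the core of the splicing machinery, had 12 of the 22 tested members higher and 0 lower (54.5 and 0%). Members had a median log2 fold change of 0.54 and a median trend of 0.39, and its removal left 1 higher and 0 lower. With the trend kept, higher and lower members came to 0 and 0 without WT 2, 4 and 0 without Rara KO 1. Chromatin remodellers and histone methyltransferases, whose genes have a median exon length of 8944 bases, had 0 of the 30 tested members higher and 7 lower (0 and 23.3%). At a median trend of -0.28, the median log2 fold change was -0.27, and the fit without the trend had 0 higher and 0 lower. The higher and lower counts were 0 and 2 without WT 1, 0 and 0 without WT 2, 0 and 2 without Rara KO 1. Kinesin and dynein motors are another family of long genes. They had 2 of the 36 tested members higher and 3 lower (5.56 and 8.33%, against 8.88 and 9.18% of all genes). With the trend removed 2 were higher and 1 lower, and the median log2 fold change as is was -0.05 at a median trend of -0.25. Counts of higher and lower members were 0 and 3 without WT 1, 0 and 0 without WT 2, 1 and 4 without Rara KO 2.

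X-linked genes that escape inactivation had 0 of the 5 tested members higher and 2 lower (0 and 40%). Removal of the trend left 0 higher and 1 lower, the median log2 fold change as is being -0.66 at a median trend of -0.24. As is, the higher and lower counts moved to 0 and 0 without WT 2. Eif2s3x, a translation factor, had 32.6 and 29.9 CPM in Rara KO, against 45.3 and 65.2 CPM in WT (-0.83 ± 0.19, adjusted p = 0.034, trend -0.18, -0.63 with it removed).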
